A study of Mus musculus with 2 samples.

Results

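Cells break down hydrogen peroxide with catalase, with peroxiredoxins and with the thioredoxin system, and 10 genes of these groups were followed here in mouse hepatocytes that had been exposed to peroxide day after day. The genes were Cat, Prdx1 to Prdx6, Srxn1, Txn1 and Txnrd1. They were taken by name from a table of 35275 genes after Ensembl identifiers had been paired with GENCODE M21 symbols, and all 10 were found. RNAseq compared untreated control AML12 cells with AML12 cells made prematurely senescent by hydrogen peroxide. AML12 is a non-transformed hepatocyte line, labelled as male CD-1 mouse liver from an age of 3 months. Both groups were kept in medium with 10% fetal bovine serum, and the complete medium of the study also held insulin, transferrin and selenium, 100 nM dexamethasone and antibiotics. Daily exposures lasted 1 h for 6 days, starting with 1 mM peroxide and going on with 750 μM, and the cells recovered for 23 h in complete medium after each one. The time from the last exposure to RNA extraction, and whether the control cells also spent that hour without serum, are not given in the sources used here. RNA of 3 samples per group was pooled before 1 library per group was made, so the spread between cultures cannot be seen. The control library held 28021941 counted reads and the senescent library 25738075. Fewer cells of a kind and less RNA per cell cannot be told apart in such bulk samples.

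Catalase is a heme enzyme of the peroxisome that splits hydrogen peroxide into water and oxygen without a reducing partner, and liver is a tissue known for high catalase. Peroxiredoxins reduce peroxide with an active cysteine, which thioredoxin then restores in most of them. Thioredoxin is in turn recharged by thioredoxin reductase with electrons from NADPH, and sulfiredoxin rescues peroxiredoxins whose cysteine has been oxidized too far. The members differ in their compartment: cytosol and nucleus, mitochondria, endoplasmic reticulum and peroxisomes each have their own.

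Most of the 10 genes had almost the same share of the reads in both libraries, and 3 stood away from the rest. Txnrd1, thioredoxin reductase, was 2.49-fold higher in the senescent library, Prdx4, the peroxiredoxin of the endoplasmic reticulum, was 2.28-fold lower, and Cat was 1.51-fold lower. The other 7 genes had log2 ratios between -0.07 and 0.17. Each ratio is senescent over control after scaling with the TMM method of edgeR. Its 95% Clopper-Pearson interval covers the counting error of reads only, not the spread between cultures. Reads amplified by PCR without identifiers can be copies of the same molecule, in which case the interval is too narrow. No test could be run on 1 library per group, so the ratios describe this pair of libraries. Genes counted as higher or lower were those past a log2 ratio of 1.5, the threshold of the study's methods, with an interval that left out 0 and at least 10 reads over both libraries. By this rule 0 of the 10 genes were higher, against 2.71% of the 14383 genes with enough reads, and 0 were lower, against 5.6%. Past a log2 ratio of 1, only Txnrd1 was higher, where 5.09% of all genes were, and only Prdx4 was lower, where 9.98% were. All 10 genes were deeply sequenced, with 1966 reads or more over both libraries. Among the 7804 genes with at least 1000 reads, 2.97% were higher and 4.15% lower past 1. With 1 of 10 genes in each direction, these counts lie close to the shares over all genes. The median log2 ratio of the 10 genes was 0.01, beside -0.02 over all genes tested and 0.08 over the genes with at least 1000 reads.

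**Figure D1:**
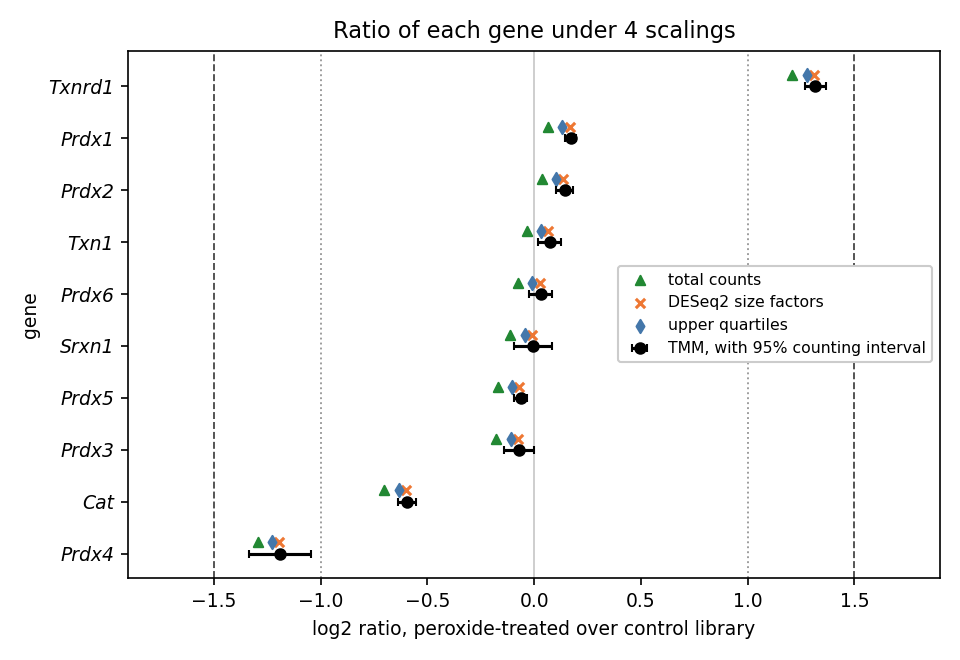
Log2 ratio of senescent over control for each gene, as black points with 95% counting intervals for TMM scaling and coloured marks for 3 other scalings. Dotted lines stand at 1 and dashed lines at 1.5 in either direction. Txnrd1 lies past 1 on the right and Prdx4 past 1 on the left under every scaling, while Txn1 and Prdx6 lie on either side of 0 depending on the scaling.

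Scaling by total counts in place of TMM moved the median of all genes by -0.11 on the log2 scale and the 10 genes with it. Txn1 then went from 0.07 to -0.03 and Prdx6 from 0.03 to -0.08, so no direction is given for these genes. The ratio of 2 genes within a library does not depend on the scaling, and such ratios are given below where they bear on a gene.

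**Figure D2:**
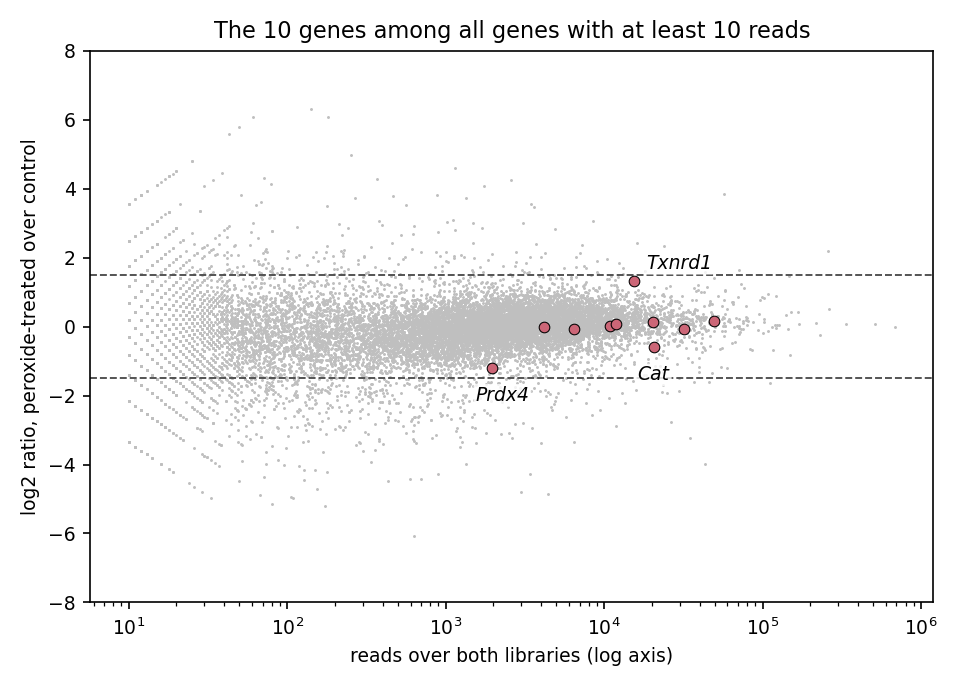
Log2 ratio of senescent over control against reads over both libraries (log axis) for all 14383 genes with at least 10 reads in grey and the 10 genes in red. Dashed lines mark 1.5 in either direction, and all 10 genes lie between them, with Txnrd1 at the upper and Prdx4 at the lower edge.

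As a group the 10 genes held 0.324% of all control reads and 0.320% of all senescent ones. Levels were compared between genes only per length, as reads per kilobase of exon scaled to the same sum in each library (TPM). The summed level was 4150 TPM for control cells and 3998 TPM for senescent cells. Prdx1 had the highest level, with 936 and 1010 TPM, followed by Prdx5 with 926 and 849 TPM. Prdx4 had the lowest, with 76.6 and 32.2 TPM. Prdx1 and Prdx5 led under the other definitions of gene length as well, whereas several ranks below them changed, and the lowest control level was then that of Srxn1. Txnrd1 made up 1.88% of the summed control level and 4.66% of the summed senescent level, and Cat 13.8% and 9.07%.

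**Figure D3:**
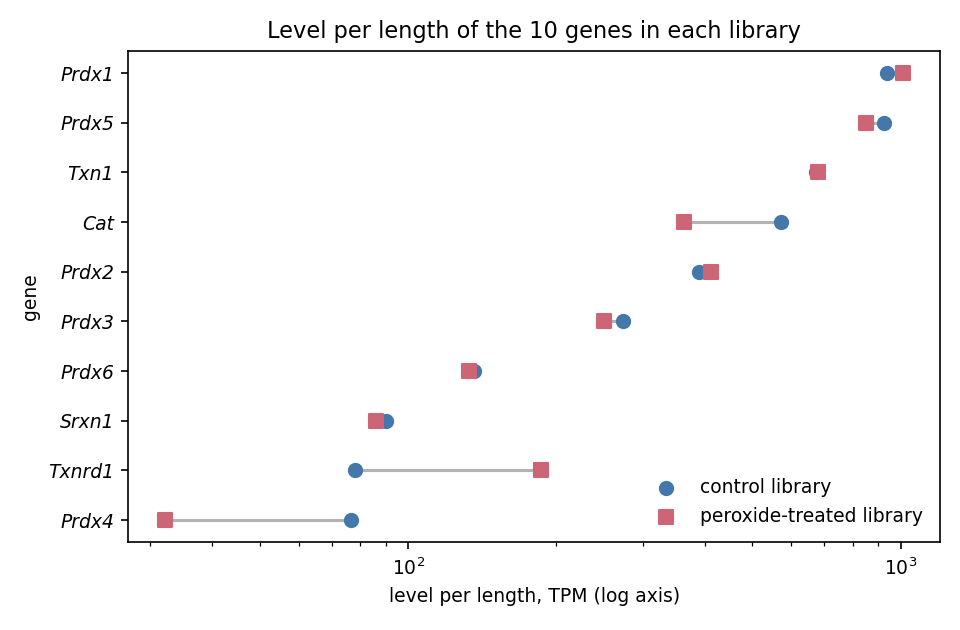
Level per length (TPM, log axis) of each gene in the control library (circles) and the senescent library (squares), in the order of the control levels. The pairs lie close together except for Txnrd1, Prdx4 and Cat.

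Cat (ENSMUSG00000027187), on the minus strand of chr2:103453849-103485160 in GRCm38, went from 13268 control to 7485 senescent reads. The log2 ratio was -0.60 (95% interval -0.64 to -0.56), and scaling by total counts gave -0.70. The senescent library thus held fewer catalase reads under each scaling, by less than the threshold of 1. Of the genes with at least 1000 reads, 10.4% had a ratio as low or lower. Within the libraries, the number of Cat reads per Prdx1 read was 0.525 for the control and 0.308 for the senescent cells, a 1.70-fold difference (1.65 to 1.76, counting error only).

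Catalase works inside peroxisomes, beside oxidases that make peroxide, so the genes of that compartment were read with it. Of 21 peroxins and peroxisomal membrane proteins, 20 had at least 10 reads, of which 0 were higher and 1 was lower past 1.5 (all genes tested: 2.71% and 5.6%), and 15 of the 20 ratios were below 0. Their median was -0.19. Pxmp4, a membrane protein of peroxisomes, had 904 control and 227 senescent reads (-1.76, interval -1.98 to -1.55). Pex11g and Pex11a, of the family that elongates and divides peroxisomes, had 409 and 144 reads (-1.27) and 716 and 291 reads (-1.07, interval -1.27 to -0.87). Pex7, the import receptor for the less common targeting signal, had -1.03 (-1.20 to -0.86). In the other direction Pex3, which places membrane proteins in the peroxisome, had 390 and 802 reads (1.27, interval 1.09 to 1.45). Abcd3, a fatty acid transporter and the most counted gene here, had 3321 and 2402 reads, a ratio of -0.24 (-0.31 to -0.16).

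Among 19 oxidases that produce peroxide or superoxide, 14 had at least 10 reads, and of these 1 was higher and 3 were lower past 1.5 (all genes tested: 2.71% and 5.6%), with a median of -0.36. Acox2, the peroxisomal oxidase of branched fatty acids and bile acid intermediates, went from 1380 to 153 reads (-2.94, interval -3.19 to -2.70). Pipox, which oxidizes pipecolic acid and sarcosine, went from 533 to 68 reads (-2.72, interval -3.13 to -2.37). Cybb, the catalytic subunit of the phagocyte NADPH oxidase, had 1904 control and 355 senescent reads (-2.19, interval -2.36 to -2.03). Nox4, an oxidase that releases mainly hydrogen peroxide, had 1000 and 308 reads, giving -1.47 (-1.66 to -1.28), and -1.57, past the threshold, when scaled by total counts. The only gene higher past 1.5 was Uox, urate oxidase, which rests on 6 control and 28 senescent reads (2.26, interval 1.15 to 4.01).

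The peroxiredoxins of the cytosol had nearly equal values in both libraries. Prdx1 (ENSMUSG00000028691, plus strand of chr4:116685544-116700822) is the main cytosolic and nuclear form. Its control reads numbered 25271 and its senescent reads 24276, with a log2 ratio of 0.17 (0.15 to 0.20). Prdx2 (ENSMUSG00000005161, plus strand of chr8:84969587-84974834), best known from red blood cells, had 10533 and 9920 reads (0.14, interval 0.10 to 0.18). These intervals are narrow because the genes are deeply sequenced, and both ratios came closer to 0 with total-count scaling, at 0.06 and 0.04. Prdx6 (ENSMUSG00000026701, minus strand of chr1:161240112-161251219) has only the peroxidatic cysteine, is restored with glutathione, and also acts as a phospholipase on membranes. It had 5795 and 5050 reads (0.03, interval -0.02 to 0.09).

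The exons of Prdx2 overlap those of a pair of genes on the opposite strand, Rnaseh2a over 177 bases and Junb over 173 bases, and the use of strand in the counting is not given in the sources used here. Junb had 11472 control and 8997 senescent reads and Rnaseh2a 2244 and 2157, so the split of reads at the ends of Prdx2 is uncertain. Prdx1 and Prdx2 also have processed pseudogenes that match them over 597 bases, Gm21399 at 98.3% identity and Tdpx-ps1 at 96.3%. Gm21399 had 7 and 9 reads and Tdpx-ps1 6 and 3 reads. How reads that fit both copies were counted is not given in the sources used here.

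The mitochondrial forms were also close to equal. Prdx3 (ENSMUSG00000024997, minus strand of chr19:60864051-60874556) is found only in mitochondria, where it is restored by thioredoxin 2. Its reads went from 3584 to 2913, with a log2 ratio of -0.07 (-0.14 to 0.0015). Prdx5 (ENSMUSG00000024953, minus strand of chr19:6906697-6910106) is shared by mitochondria, peroxisomes and cytosol. It had 17574 and 14342 reads (-0.06, interval -0.10 to -0.03), and 409 bases of its exons overlap Trmt112 on the opposite strand, which had 2769 and 2261 reads. The partners of Prdx3 lay on either side of 0. Txn2, mitochondrial thioredoxin, had 3581 control and 4175 senescent reads (0.45, interval 0.39 to 0.52), and Txnrd2, its reductase, had 290 and 165 reads (-0.58, interval -0.87 to -0.30).

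Prdx4 was the peroxiredoxin with the largest difference. Prdx4 (ENSMUSG00000025289, minus strand of chrX:155323918-155340754) carries a signal peptide into the endoplasmic reticulum, where it uses peroxide from protein folding to make further disulfide bonds. Its reads went from 1431 in control cells to 535 in senescent cells, for a log2 ratio of -1.19 (-1.34 to -1.05). This is the lowest ratio of the 10 genes, and 2.74% of the genes with at least 1000 reads had a ratio as low or lower. Prdx4 reads per Prdx1 read were 0.0566 for the control and 0.0220 for the senescent cells, a 2.57-fold difference (2.32 to 2.84, counting error only).

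Genes that form disulfide bonds in the same compartment were read beside it. Of 18 such genes, 17 had at least 10 reads, of which 0 passed 1.5 in either direction, 0 were higher past 1 and 3 were lower past 1, where 9.98% of all genes were, with a median of -0.17. These 3 were protein disulfide isomerases and a thioredoxin-like membrane protein. Pdia4 had 16272 control and 5352 senescent reads (-1.37, interval -1.42 to -1.33). Pdia6 had 9842 and 3627 reads (-1.21, interval -1.27 to -1.16), and Txndc11 had 1419 and 592 (-1.03, interval -1.17 to -0.89). P4hb, the gene of this group with the most reads over both libraries, had 33718 and 23724 reads (-0.28, interval -0.30 to -0.25), and Pdia3, ahead of it in the control library, had 34962 and 18896 (-0.66, interval -0.68 to -0.63). Ero1l, the oxidase that passes electrons from the isomerases to oxygen and makes peroxide in doing so, lay in the other direction with 1842 and 2577 reads (0.71, interval 0.63 to 0.80).

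Srxn1 (ENSMUSG00000032802, plus strand of chr2:152105516-152111376) encodes sulfiredoxin, the enzyme that reduces overoxidized peroxiredoxins and a known target of the transcription factor NRF2. Its control reads numbered 2255 and its senescent reads 1917, with a log2 ratio of -0.0047 (-0.09 to 0.08). Total-count scaling gave -0.11, outside this interval. Srxn1 reads per Prdx1 read were 0.0892 for the control and 0.0790 for the senescent cells, a 1.13-fold difference (1.06 to 1.20, counting error only).

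Txn1 (ENSMUSG00000028367, minus strand of chr4:57943373-57956411) encodes cytosolic thioredoxin, the electron donor of the cytosolic peroxiredoxins. Its reads went from 6275 to 5627, with a log2 ratio of 0.07 (0.02 to 0.12). Its pseudogene Txn-ps1, 95.8% identical over 309 bases, had 0 reads in both libraries. Txnip, whose protein binds and inhibits thioredoxin, had 2180 control and 763 senescent reads (-1.28, interval -1.41 to -1.17). Txn1 reads per Txnip read were 2.88 for the control and 7.38 for the senescent cells, a 2.56-fold difference (2.34 to 2.80, counting error only).

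Txnrd1 (ENSMUSG00000020250, plus strand of chr10:82833951-82897712) encodes cytosolic thioredoxin reductase, a selenoprotein that hands electrons from NADPH to thioredoxin. Its reads went from 4905 in control cells to 10421 in senescent cells, for a log2 ratio of 1.32 (1.27 to 1.37). Under the other scalings the ratio lay between 1.21 and 1.31, past 1 and below 1.5 each time. Of the genes with at least 1000 reads, 1.31% had a ratio as high or higher. Txnrd1 reads outnumbered those of its substrate only in the senescent library, at 0.782 Txnrd1 reads per Txn1 read for the control and 1.85 for the senescent cells. That difference was 2.37-fold (2.26 to 2.49, counting error only). Per length, Txn1 had the higher level of the pair in both libraries, at 673 TPM against 78.0 TPM for the control and 678 TPM against 186 TPM for the senescent cells. Txnrd1 overlaps Eid3 on the same strand and 2 further genes on the other, none of which shares exon bases with it.

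Txnrd1, Srxn1 and Prdx1 are textbook targets of NRF2, which binds the antioxidant response element, and their ratios were 1.32, -0.0047 and 0.17. Their promoters are shown with that of Prdx4, the gene with the lowest ratio, so that the upstream sequence of members that differ can be read side by side. Each line gives the 250 bases before a RefSeq start, 5′ to 3′ on the strand of the gene, in GRCm38.p6. Capitals mark matches to the core antioxidant response element TGACNNNGC on either strand, or to TGANTCA, an AP-1-like motif that can overlap it and was added after the sequences had been seen. Of the 3 RefSeq starts of Txnrd1, the one with a match is shown.
Txnrd1 (chr10:82858956-82859205, plus strand): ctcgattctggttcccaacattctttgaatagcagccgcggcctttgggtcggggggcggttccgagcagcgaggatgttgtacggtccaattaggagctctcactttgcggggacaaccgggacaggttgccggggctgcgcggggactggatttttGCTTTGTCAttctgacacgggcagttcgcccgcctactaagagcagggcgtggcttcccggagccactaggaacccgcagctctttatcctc
Srxn1 (chr2:152105274-152105523, plus strand): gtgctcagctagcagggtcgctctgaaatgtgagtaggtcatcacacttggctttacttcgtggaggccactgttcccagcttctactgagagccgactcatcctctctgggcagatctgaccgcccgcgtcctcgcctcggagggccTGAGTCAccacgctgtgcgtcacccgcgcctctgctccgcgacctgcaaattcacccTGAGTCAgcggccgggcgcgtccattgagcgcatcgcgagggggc
Prdx1 (chr4:116685349-116685598, plus strand): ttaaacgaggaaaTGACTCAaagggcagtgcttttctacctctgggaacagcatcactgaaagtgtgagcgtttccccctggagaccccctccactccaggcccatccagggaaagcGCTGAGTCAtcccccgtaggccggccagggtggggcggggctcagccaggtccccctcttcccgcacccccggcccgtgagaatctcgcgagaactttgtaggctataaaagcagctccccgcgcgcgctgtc
Prdx4 (chrX:155338461-155338710, minus strand): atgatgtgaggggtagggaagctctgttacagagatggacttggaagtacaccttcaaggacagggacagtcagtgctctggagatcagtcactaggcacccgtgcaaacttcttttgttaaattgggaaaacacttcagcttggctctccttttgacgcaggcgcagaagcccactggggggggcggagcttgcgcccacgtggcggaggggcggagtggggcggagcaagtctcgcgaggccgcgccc

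The RefSeq promoter table held 11 windows for 9 of the 10 genes, and 2 windows, 1 of Txnrd1 and 1 of Prdx1, held the core element. It was found in 10.2% of all 32851 promoters of the table at the same length. The match in Txnrd1, GCTTTGTCA as read on the strand of the gene, lies 92 to 84 bases before the start. The match in Prdx1, GCTGAGTCA, lies 133 to 125 bases before the start and overlaps 1 of its 2 AP-1-like matches. Srxn1 held 2 AP-1-like matches and no core element in this window, and Prdx4 held neither. The AP-1-like motif was found in 6.75% of all promoters. A match describes the letters only, and no binding was measured here.

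Beyond Txn1 and Txnrd1, the list of other thioredoxins, reductases and glutaredoxins held 13 genes, all with at least 10 reads, of which 0 passed 1.5 in either direction. Past 1, 1 was higher and 2 were lower (all genes tested: 5.09% and 9.98%), and the median was 0.09, or -0.02 with total-count scaling. Glrx, cytosolic glutaredoxin, had the lowest ratio, with 7354 control and 2473 senescent reads (-1.34, interval -1.41 to -1.28). Txnrd3, the reductase with a glutaredoxin domain, had 343 and 541 reads (0.88, interval 0.69 to 1.09). Nxn, a thioredoxin relative known as nucleoredoxin, had 200 and 360 reads, giving 1.07 (0.82 to 1.33), and 0.97 when scaled by total counts. Glrx3, the gene of the list with the most reads, had 7362 and 5831 reads (-0.11, interval -0.16 to -0.06).

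Thioredoxin also feeds ribonucleotide reductase and methionine sulfoxide reductases. Of 8 such enzymes and clients, 0 passed 1.5, 1 was higher and 0 were lower past 1 (all genes tested: 5.09% and 9.98%), 7 had ratios below 0 and the median was -0.60. Msrb1, the selenium-dependent methionine sulfoxide reductase, had 2015 control and 998 senescent reads (-0.78, interval -0.89 to -0.67). Msrb3 and Msra, of the same function, had ratios of -0.90 (-1.17 to -0.65) and -0.83 (-1.08 to -0.59), and total-count scaling put Msrb3 at -1.01. Msrb2, the mitochondrial form, was the gene higher past 1 and rests on 15 and 28 reads (1.08, interval 0.18 to 2.14), with 0.97 when scaled by total counts. Rrm1, the large subunit of ribonucleotide reductase, had 4003 and 2079 reads (-0.72, interval -0.79 to -0.64), and Rrm2, the subunit made in dividing cells, had 4007 and 2448 (-0.48, interval -0.55 to -0.41). Of 2 markers of proliferating cells, Mki67 had 3322 and 1635 reads (-0.79, interval -0.88 to -0.71), while Top2a had 3576 and 3452 (0.18, interval 0.11 to 0.25). The part of proliferation in the ribonucleotide reductase values was not tested. The 3 sestrins, which are linked to peroxiredoxin recycling and to TOR control, were split. Sesn3 had 547 and 158 reads (-1.56, interval -1.83 to -1.30), Sesn1 had 159 and 69 (-0.97, interval -1.40 to -0.56, and -1.07 with total-count scaling), and Sesn2 had 1243 and 1925 (0.86, interval 0.76 to 0.96).

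**Figure D4:**
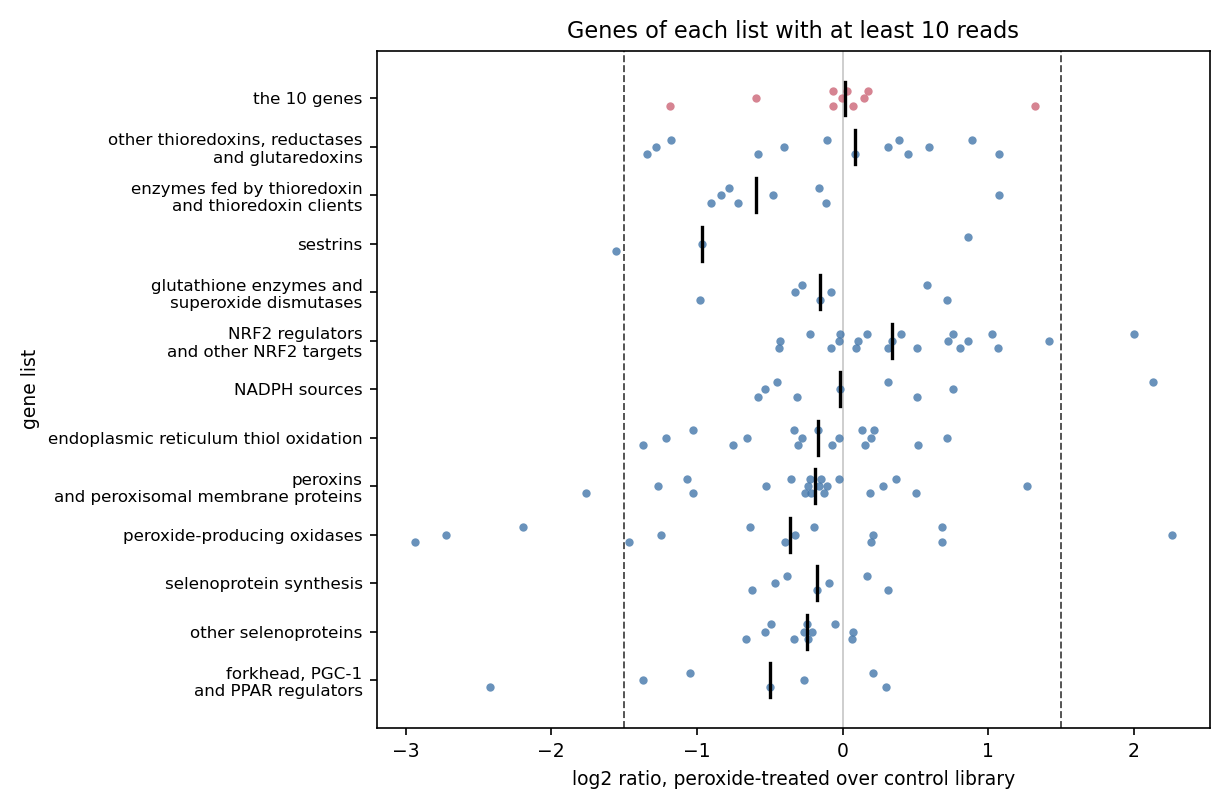
Log2 ratio of senescent over control for each gene with at least 10 reads, by gene list, with a black bar at the median of each list. Dashed lines mark 1.5 in either direction. The 10 genes have a median of 0.01, and among the pathway lists the NRF2 list has the highest median, at 0.34.

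Peroxide is also removed by glutathione peroxidases, and superoxide dismutases produce it. Of 12 genes of these groups, 7 had at least 10 reads and 5 glutathione peroxidase genes had 0 reads in both libraries. None of the 7 passed 1 in either direction (all genes tested: 5.09% and 9.98%), and the median was -0.15. Gpx4, the peroxidase of lipid peroxides with the most reads of the list, had 15057 control and 10601 senescent reads (-0.28, interval -0.31 to -0.24). Gsr, glutathione reductase, which plays for glutathione the part that Txnrd1 plays for thioredoxin, had 5928 and 8294 reads (0.71, interval 0.67 to 0.76). Sod2, of the mitochondrial matrix, had 2254 and 1533 reads (-0.33, interval -0.42 to -0.23).

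NRF2 regulators and its other targets gave a median of 0.34, and 0.23 with total-count scaling, beside -0.02 and -0.12 over all genes tested. With TMM, 15 of 21 ratios lay above 0, and 1 gene was higher past 1.5 and 0 lower (all genes tested: 2.71% and 5.6%). That gene was Slc7a11, the cystine importer, with 256 control and 874 senescent reads (interval of the log2 ratio 1.80 to 2.21). Nqo1, a quinone reductase often used as a marker of NRF2 activity, was hardly expressed, with 9 and 22 reads (1.41, interval 0.34 to 2.82). Mafk, a small partner of NRF2, and Osgin1, a growth inhibitor induced by oxidative stress, had ratios of 1.07 (0.97 to 1.17) and 1.03 (0.95 to 1.10), both below 1 with total-count scaling. Gclm, the modifier subunit of glutamate-cysteine ligase, had 5485 and 3450 reads (-0.44, interval -0.50 to -0.38), while Gclc, the catalytic subunit of the same enzyme, had 27309 and 42273 (0.86, interval 0.84 to 0.88). The transcript of NRF2 itself, Nfe2l2, had 5407 and 3940 reads (-0.23, interval -0.29 to -0.17), and that of its inhibitor, Keap1, 2616 and 1657 (-0.43, interval -0.52 to -0.34). Fth1, ferritin heavy chain and the most counted of these genes, had 89146 and 80902 reads, a ratio of 0.09 that was -0.02 with total-count scaling.

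Thioredoxin reductase and glutathione reductase both draw on NADPH. Of 9 genes for NADPH sources, 1 was higher and 0 were lower past 1.5 (all genes tested: 2.71% and 5.6%), with a median of -0.02. Mthfd2, a mitochondrial folate enzyme, had 893 control and 3333 senescent reads (2.13, interval 2.02 to 2.24). Pgd, of the pentose phosphate pathway, had 4668 and 6717 reads (0.75, interval 0.70 to 0.81), and Me1, malic enzyme and the most counted of these genes, had 8712 and 10608 (0.51, interval 0.47 to 0.55). Aldh1l1, a cytosolic folate enzyme, and the isocitrate dehydrogenases lay in the other direction, with -0.58 (-0.67 to -0.50) for Aldh1l1, -0.53 (-0.59 to -0.48) for Idh2 and -0.45 (-0.52 to -0.39) for Idh1. Over all 147 genes of these 12 lists, 134 had at least 10 reads, of which 3 were higher and 6 lower past 1.5, beside 2.71% and 5.6% of all genes tested.

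The hepatocyte label was checked against 11 marker genes, all of which had at least 10 reads. The list summed to 14450 TPM for control and 16510 TPM for senescent cells, and its most abundant genes were a pair of epithelial keratins, Krt8 with 6872 and 9361 TPM and Krt18 with 3177 and 5369 TPM. These keratins made up most of both sums, and the sum of the other 9 genes was lower in the senescent library. Alb, albumin, had 32076 control reads and 2917 senescent reads (-3.23, interval -3.28 to -3.17), and Apoa1 had 2026 and 197 (-3.13, interval -3.35 to -2.92). Hnf4a, a transcription factor that defines hepatocytes, had 8187 and 7705 reads (0.14, interval 0.10 to 0.19), whereas Cebpa, another transcription factor of hepatocytes, had 1993 and 626 (-1.44, interval -1.57 to -1.31, and -1.55 with total-count scaling). Ttr, transthyretin, had 23146 and 10486 reads (-0.91, interval -0.95 to -0.88, and -1.02 with total-count scaling). Afp and Trf were near the bottom of the range, with 75 and 65 reads and 26 and 17 reads. Hepatocyte markers were thus present in both libraries, and several of them, albumin most of all, were lower in the senescent one. The part of this difference in the values of Cat and the peroxisomal genes, which liver expresses at high levels, was not tested.

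Markers of other cell types were mostly at or near 0. The 6 macrophage markers summed to 3.59 TPM for control and 5.43 TPM for senescent cells, the defining genes Adgre1 and Clec4f had 0 reads in both, and 2 of the 3 with at least 10 reads were higher past 1.5 (all genes tested: 2.71%), Ptprc with 27 and 76 reads (1.68, interval 1.07 to 2.41) and Csf1r with 15 and 40 (1.58, interval 0.76 to 2.61), which was 1.47 when scaled by total counts. The 7 markers of stellate cells and fibroblasts summed to 0.541 and 0.123 TPM, with Acta2, Col1a2 and Col3a1 at 0 reads and Col1a1, lower past 1.5, at 21 and 1 (-3.29, interval -9.53 to -1.53), and the 4 endothelial markers to 0.0852 and 0.210 TPM, led by Pecam1 with 4 reads in each library. The 4 cholangiocyte markers were the exception, with 1540 and 1464 TPM. Krt19 led them with 22885 and 19177 reads, Sox9 had 3602 and 4454 (0.54, interval 0.47 to 0.60), Krt7 had 3248 and 1026 (-1.43, interval -1.54 to -1.33, and -1.54 when scaled by total counts), and Epcam had 0 and 1. Of the 8 genes used to check the senescence label, 0 passed 1.5 in either direction (all genes tested: 2.71% and 5.6%). Past 1, 0 were higher and 1 was lower (all genes tested: 5.09% and 9.98%). Cdkn1a, which encodes p21, had 6182 and 9869 reads (0.90, interval 0.86 to 0.95), and Cdkn2a, which encodes p16 and ARF, had 437 and 149 (-1.32, interval -1.60 to -1.05). Lmnb1, whose loss is a known sign of senescence, had 2249 and 1556 reads (-0.30, interval -0.40 to -0.21), and Hmgb2, a chromatin protein, had 2415 and 1204 (-0.77, interval -0.88 to -0.67). Trp53, which encodes p53, had 5364 and 5494 reads (0.26, interval 0.21 to 0.32), and Cdkn2b, which encodes p15, had 472 and 555 (0.46, interval 0.28 to 0.64).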

How the data were processed

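RNAseq was measured in 1 library per group, each made from the pooled RNA of 3 samples. The files the authors deposited hold raw counts of reads per gene for both libraries. The submitters' processing notes name CASAVA, STAR, DESeq2, edgeR and the build mm10 without a role or order, and the counting tool, annotation and use of strand are not given in the sources used here. The columns were matched to the groups by the initials of the sample titles. Of 35275 identifiers, 34490 (97.8%) were paired with a GENCODE M21 symbol.

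Counts were scaled with TMM in edgeR 4.0.16 (R 4.3.3), whose factors were 1.04 (control) and 0.964 (senescent), and the prior count was 1, set in proportion to the libraries. Ratios and intervals came from Python 3.11.15 (scipy 1.17.1, pandas 2.3.3, numpy 2.4.6) and figures from matplotlib 3.10.9. Copies of the genes were sought with blastn 2.17.0, at 95% identity or more over at least 100 bases. The ratio of 2 genes within a library carries the interval of the odds ratio, and these pairs were chosen after the values had been seen. Where both libraries had 3 reads or fewer, no fold is given. Neither edgeR's nor DESeq2's test can be used with 1 library per group, and no p-value was computed. The alternatives were scaling by total counts, by DESeq2 1.42.0 size factors or by upper quartiles, prior counts of 0.125 and 5, filters of 1 and 100 reads, thresholds of 1 and 2, widened intervals and other gene lengths. The steps were tested on simulated data.

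The members and lists were chosen with earlier results of these data known. All members are named, and of each list up to 4 genes with the largest ratio in each direction, the gene with the most reads, genes used to check the labels, and a few partners of these. A gene that this rule covers is not reported here. Junb, Rnaseh2a, Trmt112 and the pseudogenes are named for their overlap or likeness. Protein motifs were planned and not run.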

Additional observations from a re-analysis of the deposited data

How the results depend on the processing

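None of the 10 genes passed 1.5 under any alternative run, and with a threshold of 1 the count was 2, Txnrd1 and Prdx4. Total-count scaling moved the median of the 10 genes to -0.094 and put 9 of the 10 ratios outside their counting intervals, 2 of them with another sign. Upper-quartile scaling put 2 outside and changed 1 sign, and DESeq2 size factors and other prior counts put 0 outside. Over all genes, 259 were higher with a prior count of 5, 141 higher and 395 lower with at least 100 reads, 732 higher and 1435 lower past 1, and 219 higher and 460 lower past 2. The pathway lists held 27 genes past 1 in place of 9 past 1.5.

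No replicate shows how much such cultures vary. The intervals were therefore also widened by an assumed coefficient of variation, applied in full to each library. At 0.1 the widened intervals of 3 genes, Txnrd1, Prdx4 and Cat, left out 0, and at 0.4 those of 0 genes did. At 0.4, 246 genes were higher over the whole table. The pooling of 3 samples per library was not allowed for, so an assumed variation between single cultures was not tested. Levels per length changed the rank of 5 to 7 genes with another definition of length. The cause of these changes beyond the settings themselves was not tested. No paired analysis was possible because there is 1 library per group.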

Other observations

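Txnrd1 is a selenoprotein, and further genes of this kind were read beside it. Selenoproteins of the other lists were not counted again here and lay on either side of 0, such as Txnrd3 at 0.88 (0.69 to 1.09), Gpx4 at -0.28 (-0.31 to -0.24) and Msrb1 at -0.78 (-0.89 to -0.67). Of the 12 genes that remained, 11 had at least 10 reads, and 9 of these had log2 ratios below 0. None of the 11 passed 1 in either direction (all genes tested: 5.09% and 9.98%), and the median was -0.25. Selenop, which carries selenium from the liver to other tissues, had 24777 control and 13361 senescent reads (-0.66, interval -0.69 to -0.63). Selenos and Selenof, of the endoplasmic reticulum, had ratios of -0.53 (-0.61 to -0.45) and -0.49 (-0.53 to -0.46). Selenow and Selenot, each at 0.07, were at -0.04 with total-count scaling. Of 7 genes for selenoprotein synthesis, 0 passed 1 in either direction (all genes tested: 5.09% and 9.98%), and the median was -0.18. Sephs2, which makes the selenium donor, had 5798 and 3213 reads (-0.62, interval -0.68 to -0.56).

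Of 7 regulators, which were forkhead factors, PGC-1 coactivators, Ppara and the hypoxia factor Hif1a, 0 were higher and 1 was lower past 1.5 (all genes tested: 2.71% and 5.6%), with a median of -0.50. Ppargc1a, a coactivator of mitochondrial and antioxidant genes, had 105 control and 16 senescent reads (-2.42, interval -3.34 to -1.72). Foxo4 had 2149 and 708 reads (-1.37). Ppara, the receptor that controls peroxisomal and fatty acid oxidation genes in liver, had 1062 and 438 reads (-1.05, interval -1.21 to -0.89). Hif1a, the most counted of the 7, had 2145 and 2116 (0.21, interval 0.12 to 0.30).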
